A study of Mus musculus with 8 samples.

Results

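Transcripts of MHC antigen presentation genes were followed in mouse dorsal root ganglia by poly(A) RNA sequencing. The genes were 10 rows of the deposited count table, chosen by symbol: the class I genes H2-K1, H2-D1, B2m, Tap1 and Psmb8, and the class II genes H2-Aa, H2-Ab1, H2-Eb1, Cd74 and Ciita. All 10 were found among 54532 rows, and all 10 were among the 18971 genes left by the filter on low counts. The MIA_Acu group was C57BL/6 mice with osteoarthritis induced by monosodium iodoacetate injected into the joint and then daily manual acupuncture at the point ST36 for 7 days. The MIA group had the same injection and no acupuncture. Ganglia of levels L3-L5 were taken, and 4 libraries of each group were analysed. The labels describe 3 groups of 3 mice but define only these; no uninjured or sham-needled ganglia were analysed here, and age and sex were not given. The labels do not say which animal a library came from, and p-values therefore speak only of the spread among libraries. Of the 8 columns, 6 match a sample title; the columns MIA_Acu 3 and MIA 4 match none, while the titles give MIA 3 and MIA_Acu 4 instead. Each was placed by the group its name shows, and results are given with and without both.

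Class I molecules carry peptides of cytosolic proteins to the surface of most nucleated cells. Their heavy chain, encoded by H2-K1 and H2-D1 in the mouse, needs the light chain B2m; the transporter subunit Tap1 brings peptides into the endoplasmic reticulum, and Psmb8 is a catalytic subunit of the interferon-induced immunoproteasome. Class II molecules show peptides from endosomes to CD4+ T cells and are made mainly by macrophages, dendritic cells and B cells. H2-Aa and H2-Ab1 encode both chains of I-A, H2-Eb1 encodes the beta chain of I-E, whose alpha chain C57BL/6 mice do not make, Cd74 is the invariant chain that guards the groove, and Ciita is the coactivator that switches class II genes on. In ganglia, macrophages lie around neurons beside satellite glia, and neurons themselves hold little class I at rest.

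Promoter windows of 300 bases (250 before and 50 after the transcription start, RefSeq, build GRCm38.p6) were read for 7 of the 10 genes, and 5 are shown. H2-K1 and H2-D1 are shown because they are near-copies, with 211 of 239 aligned bases identical (88.3%). B2m is shown because its values followed another order than theirs, and H2-Aa and H2-Eb1 because their values moved together. Capitals mark matches, on either strand, to CCAAT (the Y box, read as ATTGG on the other strand), GCAAC (core of the X box, GTTGC on the other strand), the core of the interferon-stimulated response element, abbreviated ISRE (GAAA, any 2 bases, GAAA), TTCNNNGAA (the GAS element) and GGGATTC (core of the class I kappa B site).
H2-K1, chr17:34000298-34000597, minus strand: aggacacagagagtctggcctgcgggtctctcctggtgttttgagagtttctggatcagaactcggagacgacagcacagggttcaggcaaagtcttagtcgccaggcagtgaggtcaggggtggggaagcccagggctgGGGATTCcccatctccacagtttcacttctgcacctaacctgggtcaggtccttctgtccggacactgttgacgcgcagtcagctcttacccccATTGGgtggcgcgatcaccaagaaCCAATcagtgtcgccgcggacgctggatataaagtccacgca
H2-D1, chr17:35262844-35263143, plus strand: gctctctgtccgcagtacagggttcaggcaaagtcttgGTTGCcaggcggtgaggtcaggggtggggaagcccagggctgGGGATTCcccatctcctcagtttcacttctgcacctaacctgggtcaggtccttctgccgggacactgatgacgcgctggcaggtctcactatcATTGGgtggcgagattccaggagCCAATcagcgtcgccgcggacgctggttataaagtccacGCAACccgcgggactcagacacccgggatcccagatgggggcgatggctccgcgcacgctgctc
B2m, chr2:122147437-122147736, plus strand: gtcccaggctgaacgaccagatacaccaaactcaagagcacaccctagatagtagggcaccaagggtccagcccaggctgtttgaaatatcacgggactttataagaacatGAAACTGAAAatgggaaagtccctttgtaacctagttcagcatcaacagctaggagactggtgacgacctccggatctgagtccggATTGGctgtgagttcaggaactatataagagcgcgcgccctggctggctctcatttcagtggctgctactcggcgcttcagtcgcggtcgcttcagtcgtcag
H2-Aa, chr17:34287774-34288073, minus strand: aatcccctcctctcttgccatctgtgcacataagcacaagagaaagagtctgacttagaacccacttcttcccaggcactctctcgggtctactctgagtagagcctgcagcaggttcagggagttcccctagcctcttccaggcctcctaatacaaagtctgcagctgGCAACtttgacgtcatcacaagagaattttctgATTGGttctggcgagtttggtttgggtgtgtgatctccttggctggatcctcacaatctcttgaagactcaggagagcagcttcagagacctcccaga
H2-Eb1, chr17:34305617-34305916, plus strand: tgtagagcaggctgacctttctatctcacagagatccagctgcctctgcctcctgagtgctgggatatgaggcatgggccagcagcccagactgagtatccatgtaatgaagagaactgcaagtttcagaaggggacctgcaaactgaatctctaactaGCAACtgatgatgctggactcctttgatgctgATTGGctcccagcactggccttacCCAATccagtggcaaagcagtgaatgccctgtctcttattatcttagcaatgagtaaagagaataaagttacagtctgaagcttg
GGGATTC lay 110 bases before the start in H2-K1 and 170 bases before it in H2-D1. Of all 27025 windows 3.12% hold it. The inverted CCAAT after it was likewise nearer the start in H2-K1, at 16 bases before, than in H2-D1, at 76 bases before. These distances count from the start annotated for each gene. H2-K1 had 2 annotated windows, of which only the first was read, and the difference from H2-D1 depends on that start. The ISRE core lay 139 bases before the start in B2m, and 3.49% of windows hold it. In H2-Aa, GCAAC stood 81 bases before the start and an inverted CCAAT 48 bases before it. H2-Eb1 had GCAAC at 91 and the inverted CCAAT at 59 bases before. Alone these letters are frequent, GCAAC in 35.4% and CCAAT in 37.9% of windows. In the same strand order, with 25 to 30 bases between them, they stand in 78 windows (0.289%), H2-Aa and H2-Eb1 among them; that arrangement was chosen after these windows were read. A match is a description of the letters, not evidence of a site in use. Psmb8 had a TTCNNNGAA 97 bases before its start, a motif in 8.47% of windows. The H2 genes, Tap1 and Psmb8 lie together on chromosome 17, B2m on chromosome 2 and Ciita on chromosome 16.

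The libraries held 32892804 to 40627041 counts. Markers of sensory neurons, whose 7 genes were found in every library, summed to 5314 to 6210 CPM (counts scaled to library size) in MIA_Acu and 6081 to 8089 CPM in MIA. Across all genes 0 of 18971 (0%) passed an adjusted p of 0.05 in edgeR's quasi-likelihood test; unadjusted, p was under 0.05 for 4137 genes (21.8%), 11.2% being higher and 10.6% lower in MIA_Acu. DESeq2 called 1753 genes and limma voom 0. Without MIA 4 edgeR called 1340 genes, and in the 6 title-matched libraries 1963 of 18941 (10.4%), 6.22% higher and 4.14% lower. The median log2 fold change of all tested genes was 0.02. MIA_Acu 3 stood apart with 531 CPM of bone and cartilage markers, against 11.8 to 55.9 CPM in the other MIA_Acu libraries and 10.5 to 36.8 CPM in MIA. Its neutrophil and marrow markers summed to 1068 CPM. They summed to 207.9 to 378.1 CPM in the other MIA_Acu libraries and 311.0 to 614.7 CPM in MIA.

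No difference between MIA_Acu and MIA ganglia was called for an antigen presentation gene: 0 of 10 passed the threshold in the 8 libraries, in the 6 title-matched libraries or in any other alternative run. At an unadjusted p under 0.05 there was 1 of 10, B2m, against 21.8% of all genes. For no gene did the groups' values separate, which 10.9% of all genes did. The fitted log2 fold change was above 0 for 9 of 10 genes, against 52.9% of all genes, with a median of 0.15. That count rests on single libraries: it was 4 without MIA_Acu 2, 5 without MIA_Acu 3, 6 without MIA 4 and 6 in the title-matched libraries. The 5 class II genes had a median of 0.22 in 8 libraries and 0.29 in 6, with all 5 above 0 in both. The 5 class I genes had a median of 0.07 in 8 libraries and -0.18 in 6, where only B2m was above 0.

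**Figure D1:**
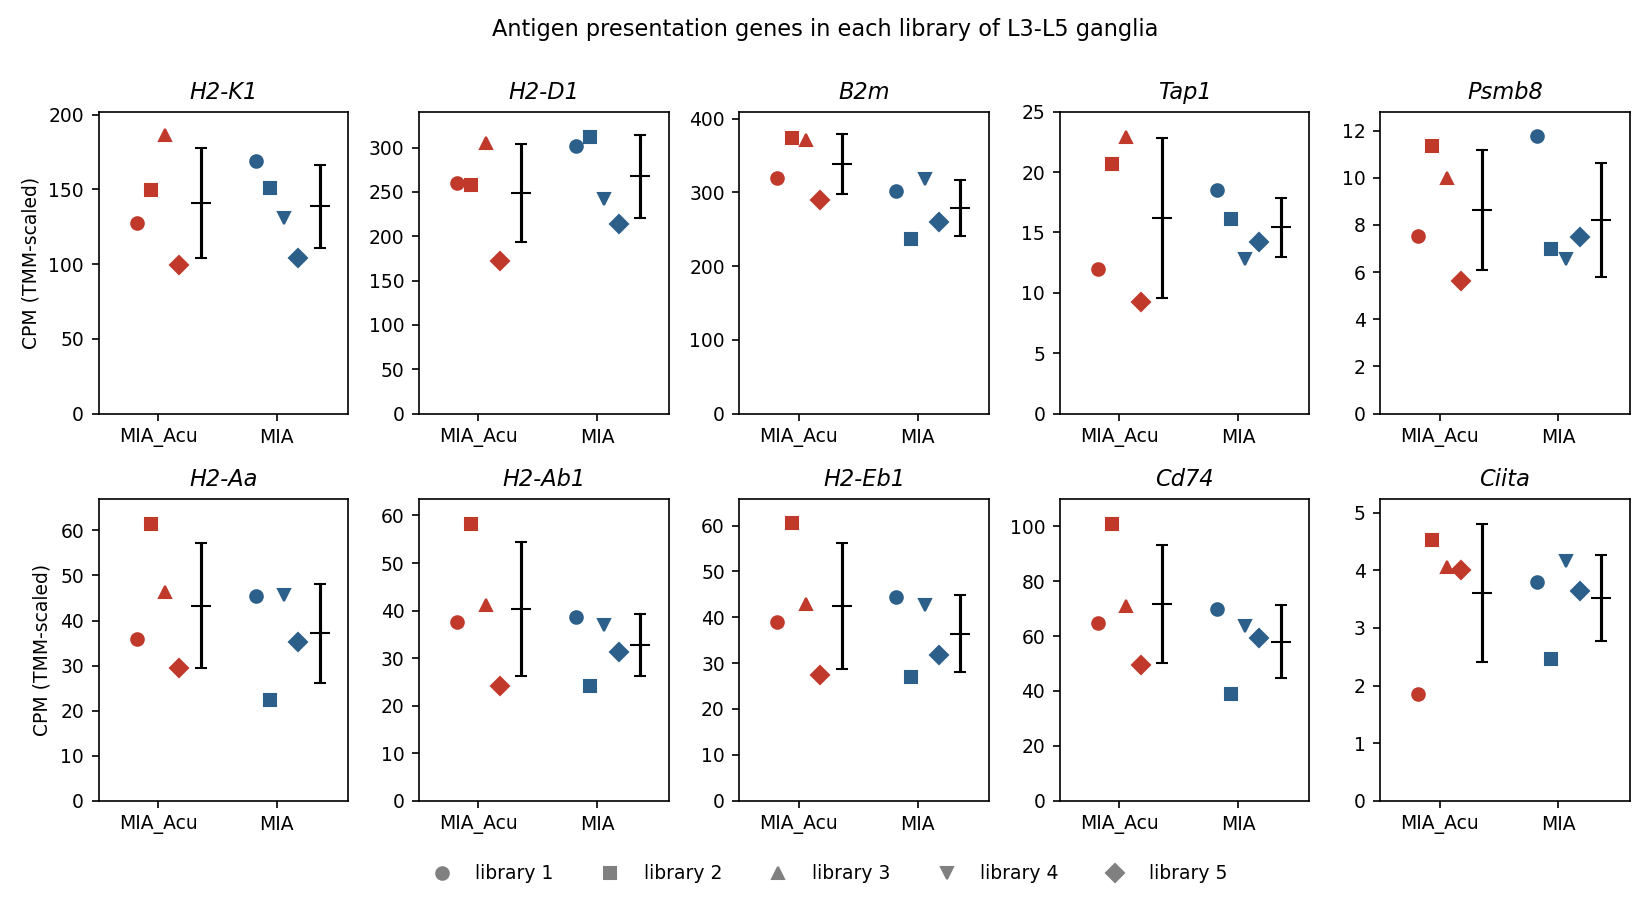
CPM of the 10 antigen presentation genes in each library, MIA_Acu left and MIA right; symbols mark the library number and bars the group mean ± SD (n = 4 each). The groups overlap for every gene, and MIA_Acu 2 is the highest library for the 5 class II genes.

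**Figure D2:**
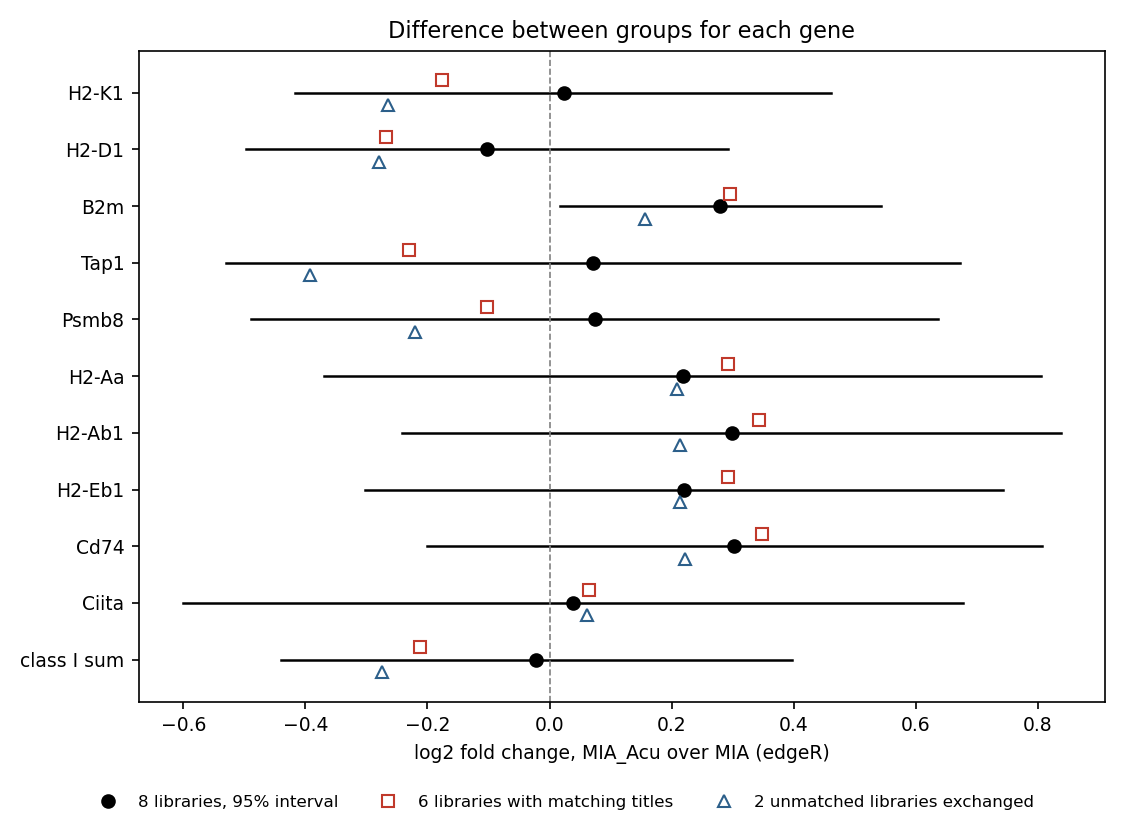
Fitted log2 fold change of MIA_Acu over MIA for each gene and for the sum of 15 class I heavy chain genes, with 95% intervals from 8 libraries (filled circles and lines). Open squares are the 6 title-matched libraries and open triangles the fit with the groups of MIA_Acu 3 and MIA 4 exchanged. The interval of B2m alone lies above 0, and H2-K1, Tap1 and Psmb8 change sign between the settings.

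Of the class I heavy chains, H2-K1 had 127.8, 149.6, 186.4 and 99.7 CPM in MIA_Acu 1, 2, 3 and 5, against 169.3, 150.7, 130.8 and 104.0 CPM in MIA 1, 2, 4 and 5. MIA_Acu held both the highest and the lowest library, and the MIA libraries lay between them. The means were 140.9 ± 36.6 CPM in MIA_Acu and 138.7 ± 28.0 CPM in MIA (SD, n = 4 each). The log2 fold change was 0.02 (SE 0.20, 95% interval -0.42 to 0.46, edgeR adjusted p = 0.959, and 0.610 in 6 libraries).

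H2-D1, the other classical heavy chain, had 260.5, 258.2, 305.3 and 172.4 CPM in MIA_Acu, against 301.5, 311.9, 242.3 and 214.2 CPM in MIA. MIA_Acu 5 was again the lowest library, here beneath every MIA library, while MIA 2 was the highest. Means were 249.1 ± 55.5 CPM in MIA_Acu and 267.5 ± 46.9 CPM in MIA (SD, n = 4 each), a log2 fold change of -0.10 (SE 0.18, 95% interval -0.50 to 0.29, edgeR adjusted p = 0.777, and 0.402 in 6 libraries). The heavy chains kept a near-constant proportion, with 1.638 to 2.039 H2-D1 counts per H2-K1 count in MIA_Acu and 1.78 to 2.07 in MIA. The longest coding transcripts of both genes are 91.6% identical, but no stretch of 100 bases of H2-K1 occurs in another gene; for H2-D1 4.64% of such stretches do, mostly in H2-Q1. How reads common to such copies were counted is not given in the sources used here. Summing 15 class I heavy chain genes, which does not depend on how reads were divided among them, gave 365.4 to 686.3 CPM in MIA_Acu and 420.7 to 619.8 CPM in MIA, a log2 fold change of -0.02 (SE 0.19, 95% interval -0.44 to 0.40, edgeR adjusted p = 0.960).

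B2m, the light chain of every class I molecule, had 319.8, 373.8, 370.8 and 289.9 CPM in MIA_Acu, against 301.4, 236.4, 317.9 and 259.4 CPM in MIA. In MIA_Acu 1, 2 and 3 it exceeded the highest MIA library, and in MIA_Acu 5 it lay within the MIA range. Means were 338.6 ± 40.8 CPM in MIA_Acu and 278.8 ± 37.5 CPM in MIA (SD, n = 4 each). The log2 fold change was 0.28 (SE 0.12, 95% interval 0.02 to 0.54), with an unadjusted p of 0.0392 and an adjusted p of 0.207 in edgeR, and 0.159 in 6 libraries. B2m did not follow its partners: per count of H2-K1 plus H2-D1 there were 0.754 to 1.07 of B2m in MIA_Acu and 0.511 to 0.852 in MIA. Endothelial markers, from vessel cells that carry class I, summed to 261.3 to 355.3 CPM in MIA_Acu and 183.0 to 225.5 CPM in MIA, and fibroblast markers to 1817 to 5303 CPM in MIA_Acu and 521 to 1584 CPM in MIA. The 12 macrophage markers summed to 140.5 to 220.1 CPM in MIA_Acu and 95.2 to 151.0 CPM in MIA. The part of these cells in the B2m values was not tested. In whole ganglia more cells of a type and more RNA per cell cannot be told apart.

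Tap1, a subunit of the peptide transporter, had 11.98, 20.6, 22.9 and 9.20 CPM in MIA_Acu, against 18.5, 16.2, 12.8 and 14.2 CPM in MIA. The MIA_Acu libraries lay on both sides of all 4 MIA libraries, with MIA_Acu 2 and 3 above and MIA_Acu 1 and 5 beneath them. Its log2 fold change was 0.07 (SE 0.27, 95% interval -0.53 to 0.67, edgeR adjusted p = 0.906, and 0.631 in 6 libraries). Psmb8, the immunoproteasome subunit encoded beside it, had 7.53, 11.3, 9.99 and 5.64 CPM in MIA_Acu, against 11.8, 6.99, 6.57 and 7.48 CPM in MIA. Its highest library was MIA 1 and its lowest MIA_Acu 5. The log2 fold change was 0.07 (SE 0.25, 95% interval -0.49 to 0.64, edgeR adjusted p = 0.894, and 0.855 in 6 libraries). Set against Psmb5, the subunit it replaces, Psmb8 had 0.113 to 0.199 counts per count in MIA_Acu and 0.110 to 0.194 in MIA. Of the class I genes MIA_Acu 5 was the lowest library for 4 of 5, all but B2m.

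The I-A alpha chain H2-Aa had 35.9, 61.4, 46.2 and 29.6 CPM in MIA_Acu, against 45.4, 22.4, 45.7 and 35.3 CPM in MIA. MIA_Acu 2 was highest and MIA 2 lowest, and the other 6 libraries were mixed. Means were 43.2 ± 13.9 CPM in MIA_Acu and 37.2 ± 11.01 CPM in MIA (SD, n = 4 each), with a log2 fold change of 0.22 (SE 0.26, 95% interval -0.37 to 0.81, edgeR adjusted p = 0.666, and 0.590 in 6 libraries).

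H2-Ab1, the I-A beta chain, had 37.6, 58.3, 41.1 and 24.1 CPM in MIA_Acu, against 38.7, 24.2, 36.9 and 31.3 CPM in MIA. Here MIA_Acu 5 was the lowest library, with MIA 2 just above it. For H2-Ab1 the log2 fold change was 0.30 (SE 0.24, 95% interval -0.24 to 0.84, edgeR adjusted p = 0.501, and 0.499 in 6 libraries). H2-Eb1, the I-E beta chain, had 38.9, 60.5, 42.9 and 27.5 CPM in MIA_Acu, against 44.5, 27.1, 42.6 and 31.7 CPM in MIA. It repeated the order of H2-Aa at the top and at the bottom. Its log2 fold change was 0.22 (SE 0.23, 95% interval -0.30 to 0.74, edgeR adjusted p = 0.618, and 0.551 in 6 libraries), and without MIA_Acu 2 it was -1e-04.

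Cd74, the invariant chain, had 64.9, 100.8, 70.9 and 49.5 CPM in MIA_Acu, against 69.9, 39.0, 63.8 and 59.4 CPM in MIA. Again MIA_Acu 2 was the highest library and MIA 2 the lowest. Means were 71.5 ± 21.5 CPM in MIA_Acu and 58.0 ± 13.4 CPM in MIA (SD, n = 4 each), with a log2 fold change of 0.30 (SE 0.23, 95% interval -0.20 to 0.81, edgeR adjusted p = 0.464, and 0.461 in 6 libraries). Ciita, which drives the class II genes and Cd74, had 1.85, 4.53, 4.05 and 3.998 CPM in MIA_Acu, against 3.81, 2.45, 4.17 and 3.64 CPM in MIA. MIA_Acu 2 was highest for it too, but MIA_Acu 1, in the middle for the chains, was its lowest library. For Ciita the log2 fold change was 0.04 (SE 0.29, 95% interval -0.60 to 0.68, edgeR adjusted p = 0.953, and 0.925 in 6 libraries).

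Compared per kb of transcript, averaged over the 8 libraries, B2m was the most abundant at 359 CPM per kb, rank 76 of 15409 genes with a length. H2-D1 (123 CPM per kb) and H2-K1 (86.3 CPM per kb) followed, then Cd74 (45.9 CPM per kb), H2-Aa (35.7 CPM per kb), H2-Ab1 (30.1 CPM per kb) and H2-Eb1 (23.6 CPM per kb). Tap1 and Psmb8 lay at 5.35 and 5.17 CPM per kb and Ciita at 0.593 CPM per kb, rank 13697. Neighbours in that order overlapped from Cd74 to H2-Eb1 and for Tap1 and Psmb8, taking mean ± SD in each group. In 1 group alone, H2-K1 also overlapped Cd74 in MIA_Acu. H2-D1 and H2-K1 overlapped in MIA_Acu (118.5 ± 26.4 and 87.0 ± 22.6 CPM per kb) and not in MIA (127.2 ± 22.3 and 85.7 ± 17.3 CPM per kb). Cd74 was at 50.7 ± 15.3 CPM per kb in MIA_Acu and 41.1 ± 9.49 CPM per kb in MIA, and H2-Aa at 38.3 ± 12.3 CPM per kb in MIA_Acu and 33.0 ± 9.76 CPM per kb in MIA. Within a group 9 of the 10 genes spread more than the median gene. The within-group SD of log2 CPM was 0.203 for the median tested gene, 0.187 for B2m and 0.309 (H2-D1) to 0.474 (Ciita) for the other 9 genes. From the lowest to the highest library B2m varied 1.58-fold and H2-Aa 2.74-fold.

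The class II chains and Cd74 moved together from library to library. The 3 chains summed to 1.64 to 1.84 counts per Cd74 count in MIA_Acu and 1.65 to 1.96 in MIA, while the chains and Cd74 together ranged from 130.6 to 281.0 CPM in MIA_Acu and from 112.6 to 198.4 CPM in MIA. H2-Eb1 stood at 1.036 to 1.138 per H2-Ab1 count in MIA_Acu and 1.01 to 1.16 in MIA. The sum was 177.3, 281.0, 201.2 and 130.6 CPM in MIA_Acu, against 198.4, 112.6, 188.9 and 157.6 CPM in MIA. The class I genes shared no single order. MIA_Acu 3 was highest for H2-K1 and Tap1, MIA 2 for H2-D1 and MIA 1 for Psmb8, while B2m, like H2-Aa, H2-Eb1 and Cd74, was highest in MIA_Acu 2 and lowest in MIA 2. Without MIA_Acu 2 the log2 fold change of H2-Aa was 0.0014, that of H2-Ab1 0.0659 and that of Cd74 0.0909; without MIA 2 they were 0.0375, 0.178 and 0.152.

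**Figure D3:**
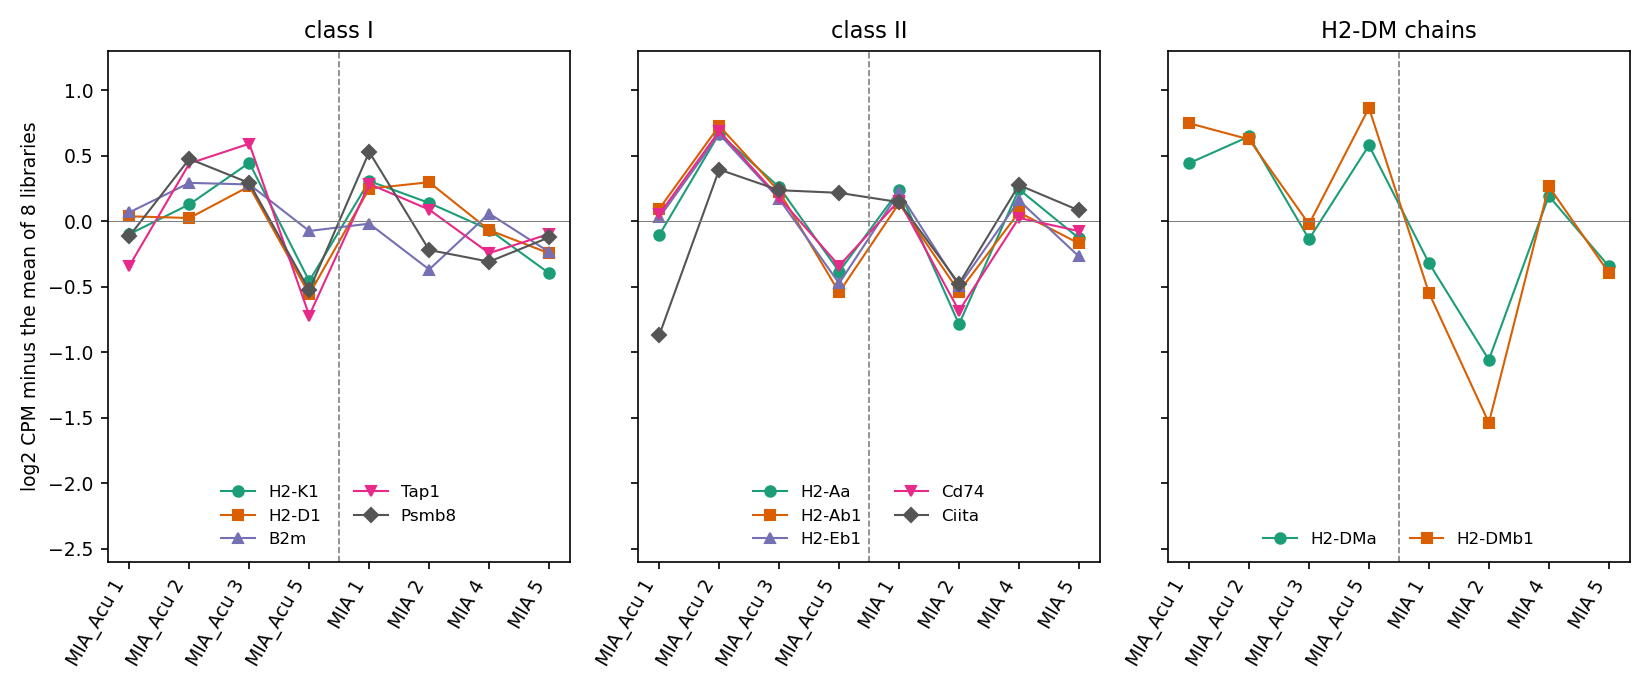
Log2 CPM of each gene minus its mean over the 8 libraries, for the class I genes, the class II genes, and the H2-DM chains; libraries run along the x axis, MIA_Acu left of the dashed line. H2-Aa, H2-Ab1, H2-Eb1 and Cd74 trace nearly 1 line with its peak at MIA_Acu 2, while the H2-DM chains trace another, high in MIA_Acu 1, 2 and 5 and lowest in MIA 2.

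Macrophage markers, 12 genes none of which was at 0 in any library, summed to 147.2, 220.1, 187.7 and 140.5 CPM in MIA_Acu, against 124.9, 95.2, 151.0 and 115.3 CPM in MIA. Like the class II sum, they were highest in MIA_Acu 2 and lowest in MIA 2. These extremes were not particular to macrophage markers. The fibroblast markers Dcn, Lum and Pdgfra and the glia marker Sox10 had the same highest and lowest library. The fibroblast markers Col1a1, Col1a2 and Dpt were also lowest in MIA 2 but highest in MIA_Acu 3. Per macrophage marker count there were 0.929 to 1.28 counts of the chains and Cd74 in MIA_Acu and 1.18 to 1.59 in MIA. The 6 B cell markers summed to 8.39 to 36.1 CPM in MIA_Acu, with the top in MIA_Acu 3 and the bottom in MIA_Acu 2, the library richest in class II, and to 10.9 to 17.2 CPM in MIA. The 8 dendritic cell markers summed to 40.8 to 44.2 CPM in MIA_Acu and 42.4 to 49.2 CPM in MIA. Most of that was Flt3 and Zbtb46. Flt3 had 18.92, 17.84, 17.03 and 17.58 CPM in MIA_Acu, against 19.91, 27.97, 21.98 and 26.68 CPM in MIA. It lay lower in every MIA_Acu library than in any MIA library, as did the sensory neuron markers Avil and Nefh. The log2 fold change of Flt3 was -0.436 (edgeR adjusted p = 0.103), while 5 of the 7 tested dendritic cell markers were above 0. Whether the sum follows dendritic cells was not tested. Xcr1, which marks cross-presenting dendritic cells, did not exceed 0.381 CPM in MIA_Acu or 0.475 CPM in MIA. Clec9a, another dendritic cell marker of the list, had 1.655 to 2.558 CPM in MIA_Acu and 1.67 to 1.979 CPM in MIA. T and NK cell markers summed to 2.08 to 6.37 CPM in MIA_Acu and 2.83 to 4.36 CPM in MIA. The part of these cells in the class II values was not tested. By a fixed measure of likeness, the root mean square difference of centred log2 CPM over the 8 libraries, the genes nearest the class II chains and Cd74 among 15410 were the complement gene C1qb, itself a macrophage marker (0.105), Rpl19-ps11 (0.113), the complement gene C2 (0.123) and, at rank 5, the interferon-induced GTPase gene Gbp5 (0.159). C2 and Rpl19-ps11 lay below 4 CPM in every library. Nearest the class I genes were the granzyme inhibitor gene Serpinb9 (0.104), the adenosine receptor gene Adora2a (0.116), Stap2 (0.117), the interferon-induced gene Parp12 (0.136) and Kin (0.136). B2m ranked 45 in likeness to the class II chains and Cd74, and 531 to the class I genes, itself included.

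**Figure D4:**
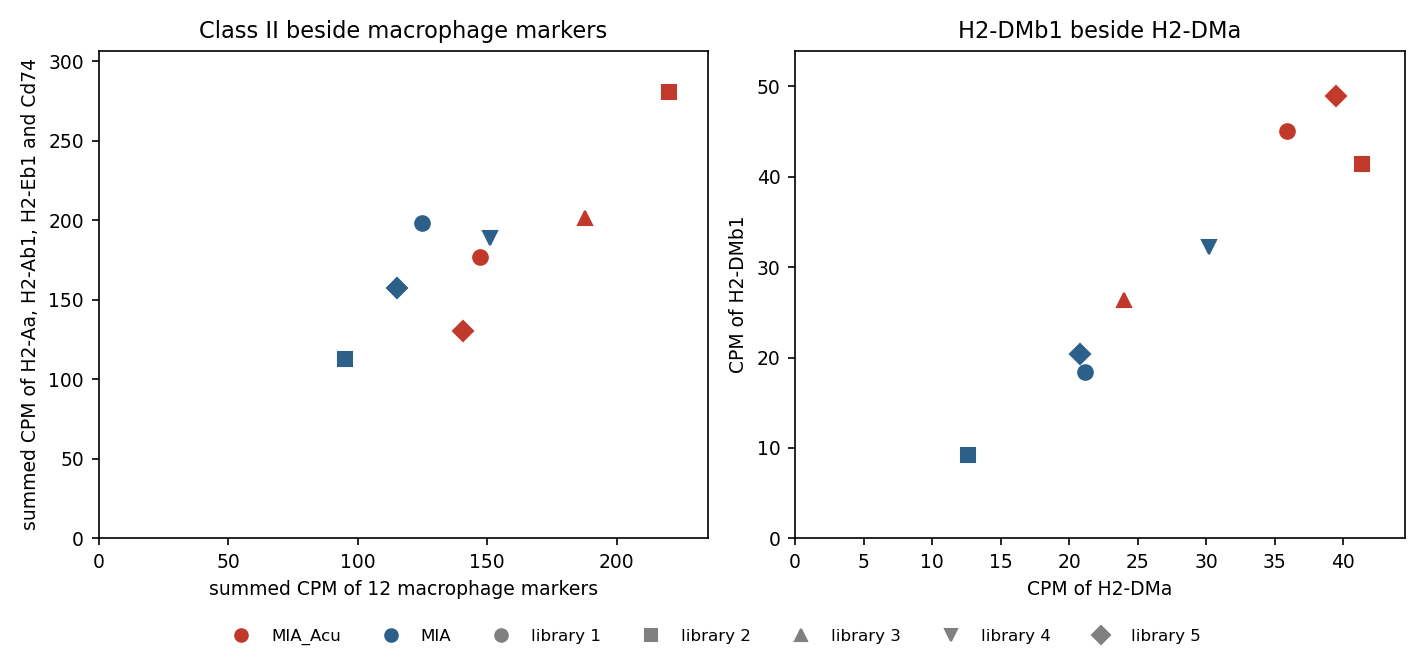
Left, summed CPM of H2-Aa, H2-Ab1, H2-Eb1 and Cd74 against summed CPM of 12 macrophage markers; right, CPM of H2-DMb1 against CPM of H2-DMa; each point is 1 library, coloured by group (MIA_Acu red, MIA blue), with the symbol for its number. MIA_Acu 2 is at the top and MIA 2 at the bottom on the left, and on the right MIA_Acu 3 (26.4 CPM of H2-DMb1) lies below MIA 4 (32.3 CPM).

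The rest of the pathway was read from 11 lists of 73 genes. In the 8 libraries 0 genes of any list passed the threshold in either direction. From each list the 2 genes most abundant per kb are named. The class I heavy chains outside the 10 genes, 11 tested of 13, had 6 log2 fold changes above 0 and 5 below, with a median of 0.05. H2-T23, the ligand of an inhibitory NK receptor, had 19.6, 36.2, 39.5 and 15.5 CPM in MIA_Acu, against 22.1, 20.8, 20.8 and 19.0 CPM in MIA (adjusted p = 0.382), and H2-T22 averaged 28.1 CPM in MIA_Acu and 28.6 CPM in MIA. Among 7 peptide loading genes (median 0.06) the chaperone Calr averaged 365 ± 20.6 CPM in MIA_Acu and 338 ± 29.4 CPM in MIA (SD, n = 4, edgeR adjusted p = 0.460), and Pdia3 371 CPM in MIA_Acu and 369 CPM in MIA. All 4 genes of the immunoproteasome and its activator had a log2 fold change above 0 (median 0.14), with the activator subunits Psme1 at 0.14 and Psme2 at 0.16. Their lowest edgeR adjusted p was 0.472, and in the 6 title-matched libraries 3 of the 4 were above 0 (median 0.07). All 3 constitutive catalytic subunits were below 0 (median -0.06), with Psmb6 at -0.06 and Psmb7 at -0.13. Their lowest edgeR adjusted p was 0.265, and in the 6 libraries 0 of the 3 were above 0 (median -0.09).

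Among 6 endosomal processing genes (median -0.16), the protease Ctsb averaged 1024 ± 101 CPM in MIA_Acu and 1257 ± 99.5 CPM in MIA (SD, n = 4, edgeR adjusted p = 0.141), and Ctsd 228 CPM in MIA_Acu and 248 CPM in MIA. Of 10 MHC transcription factors 9 were above 0 (median 0.15); the RFX subunit Rfxap had 0.13 and the NF-Y subunit Nfyb 0.22. The 5 genes listed for interferon gamma signalling were Ifngr1, Ifngr2, Jak1, Jak2 and Socs1. The receptor chain Ifngr1 had 43.7, 45.9, 42.0 and 38.1 CPM in MIA_Acu, against 34.6, 30.6, 39.2 and 34.3 CPM in MIA. Only MIA 4 reached into the MIA_Acu range, and the adjusted p was 0.130 in edgeR. The kinase Jak1 had 416.0, 334.4, 411.6 and 370.9 CPM in MIA_Acu, against 489.4, 502.9, 411.1 and 464.2 CPM in MIA, with edgeR adjusted p = 0.146 in 8 libraries and 0.0389 in 6. In those 6 libraries 4.14% of all genes were called lower. The 10 type I interferon-stimulated genes were all above 0 (median 0.62 in 8 libraries and 0.24 in 6, where 8 were above 0). Ifit3 had 34.0, 50.2, 62.0 and 22.6 CPM in MIA_Acu, against 25.1, 21.7, 27.0 and 25.01 CPM in MIA (edgeR adjusted p = 0.146), and Bst2 18.8, 28.7, 30.5 and 13.2 CPM in MIA_Acu, against 16.1, 12.8, 17.5 and 12.7 CPM in MIA (adjusted p = 0.188). Both were lowest among the MIA_Acu libraries in MIA_Acu 5 and highest in MIA_Acu 3, as were H2-K1 and Tap1. Of the costimulation genes the ligand Icosl had a log2 fold change of 0.40 and Cd274, which encodes PD-L1, of -0.08 (adjusted p = 0.230 and 0.766).

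Of the 4 MHC-like presentation genes, all with a log2 fold change above 0 (median 0.46), Fcgrt, which encodes the neonatal Fc receptor, had 46.8, 50.9, 43.9 and 48.9 CPM in MIA_Acu, against 36.3, 23.6, 38.9 and 32.6 CPM in MIA. Every MIA_Acu library lay above every MIA library, a separation upwards that 4.95% of all genes showed. The log2 fold change was 0.54 (SE 0.14, edgeR adjusted p = 0.102, and 0.0299 in 6 libraries). In those 6 libraries 6.22% of all genes were called higher. Mr1, which presents vitamin B metabolites, had 17.9, 18.1, 15.6 and 15.4 CPM in MIA_Acu, against 13.7, 9.001, 17.3 and 10.4 CPM in MIA (adjusted p = 0.234, and 0.0469 in 6 libraries). Of the 73 genes 3 others separated upwards and were named after their values were seen. They were the iron regulator Hfe (adjusted p = 0.0906, and 0.0257 in 6 libraries), the kinase Jak2 (0.109, and 0.0486 in 6) and the endosomal thiol reductase Ifi30 (0.0969, and 0.103 in 6). None separated downwards, as 5.91% of all genes did.

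Of the 5 class II accessory chains 4 were tested, 3 with a log2 fold change above 0 and 1 below (median 0.68). H2-Ob, a chain of H2-O, which inhibits H2-DM, was at 0.822 to 1.80 CPM in MIA_Acu and 1.23 to 2.07 CPM in MIA, with a log2 fold change of -0.33. Its partner H2-Oa stayed below the filter, at no more than 0.245 CPM in MIA_Acu and 0.274 CPM in MIA. The H2-DM chains did not follow the class II chains. H2-DMa and H2-DMb1 encode H2-DM, which loads peptides onto class II molecules in endosomes. H2-DMa had 35.9, 41.3, 24 and 39.4 CPM in MIA_Acu, against 21.2, 12.7, 30.2 and 20.8 CPM in MIA. The groups overlapped only in that MIA_Acu 3 lay below MIA 4, the columns that match no title. Means were 35.2 ± 7.78 CPM in MIA_Acu and 21.2 ± 7.15 CPM in MIA (SD, n = 4 each), with a log2 fold change of 0.73 (SE 0.25, 95% interval 0.18 to 1.29, edgeR adjusted p = 0.147). H2-DMb1 had 45.1, 41.4, 26.4 and 48.9 CPM in MIA_Acu, against 18.4, 9.21, 32.3 and 20.4 CPM in MIA. The same libraries crossed over. Means were 40.5 ± 9.85 CPM in MIA_Acu and 20.1 ± 9.48 CPM in MIA (SD, n = 4 each), with a log2 fold change of 1.01 (SE 0.33, 95% interval 0.28 to 1.74, edgeR adjusted p = 0.139). In the 6 title-matched libraries both passed, H2-DMa at 1.09 and H2-DMb1 at 1.49 (edgeR adjusted p = 0.0188 for each), where 6.22% of genes were called higher. Without MIA 4 alone both passed too (adjusted p = 0.0468 and 0.0410). Without MIA_Acu 3 alone neither did (0.0955 and 0.100), nor without any other single library, where adjusted p reached 0.301 and 0.280. With the groups of MIA_Acu 3 and MIA 4 exchanged, the values were 0.0505 for H2-DMa and 0.0615 for H2-DMb1, neither past the threshold. Of 100-base stretches of H2-DMb1, 13.7% also occur in its neighbour H2-DMb2, which lay at 0.503 to 1.85 CPM in MIA_Acu and 0.444 to 0.812 CPM in MIA.

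In likeness to the class II chains and Cd74, H2-DMa ranked 10030 and H2-DMb1 13928 of 15410 genes. Per count of H2-DMa there were 1.002 to 1.257 counts of H2-DMb1 in MIA_Acu and 0.728 to 1.07 in MIA. A comparison chosen after these values were seen gave the genes nearest to the mean of the H2-DM chains. The 5 at the top of 15408 were Secisbp2l, Metrnl, the integrin gene Itga6, Gulp1 and Gldn, which encodes gliomedin of Schwann cells. Among markers of glia, Cdh19 and Sox10 moved with the H2-DM chains. Fabp7 did not, with 295.7, 315.1, 268.1 and 223.3 CPM in MIA_Acu, against 278.0, 321.4, 303.2 and 319.5 CPM in MIA. Kcnj10 was lowest in MIA 1 and Glul in MIA_Acu 3. The 5 satellite glia markers had a median log2 fold change of 0.16 in 8 libraries and 0.23 in 6. Of these 5 markers 0 passed in 8 libraries and 2 in 6, where 10.4% of all genes passed, 6.22% being higher. Among them, Cdh19 had 281.4, 283.3, 168.2 and 286.5 CPM in MIA_Acu, against 178.1, 146.7, 250.7 and 184.6 CPM in MIA. Sox10, the transcription factor of glia of the peripheral nervous system, had 192.2, 239.7, 137.6 and 223.8 CPM in MIA_Acu, against 131.5, 95.2, 172.3 and 152.5 CPM in MIA. Both were lowest in MIA 2, with MIA_Acu 3 below MIA 4, and edgeR adjusted p was 0.247 for Cdh19 and 0.185 for Sox10 in 8 libraries and 0.0185 and 0.0271 in 6. The 5 markers summed to 1039 to 1438 CPM in MIA_Acu and 1053 to 1227 CPM in MIA, and none was at 0. The 6 spinal cord markers summed to 58.5, 351.8, 126.5 and 404.0 CPM in MIA_Acu, against 56.0, 62.9, 139.6 and 103.1 CPM in MIA, with Mog and Opalin at 0 in some libraries. The part of these cells in the H2-DM values was not tested.

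Whether the columns MIA_Acu 3 and MIA 4 were exchanged cannot be told from the labels; with their groups exchanged none of the 10 antigen presentation genes passed the threshold.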

How the data were processed

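Poly(A) RNA of L3-L5 ganglia was extracted with TRIzol and made into libraries with the NEBNext Ultra kit, per the labels' protocols. FastQC and Trimmomatic stand in the submitters' processing notes, as does the build GRCm39 (mm39). For the aligner, counter, strand setting and annotation release nothing is given in the sources used here; overlapping and antisense genes could not be told apart. The authors deposited raw counts per Ensembl gene with symbols; 20427 rows held no count.

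The members and lists were chosen with earlier results of these data known. Genes were kept by edgeR 4.0.16 (minimum count 10, minimum total 15), scaled by TMM and tested with its quasi-likelihood test over all 18971 genes, with Benjamini-Hochberg adjustment and a threshold of 0.05. The libraries' biological coefficient of variation came to 22.9%. Standard errors come from the F statistic, and CPM use TMM-scaled totals. The step was tested on simulated data. No covariate was given by the labels. Transcript lengths are those of the longest coding transcript in GENCODE vM21, of another build, and were used only for levels per kb and for shared stretches. Named besides the 10 genes were the 2 genes of each of 11 lists most abundant per kb and the 5 genes nearest in profile (log2 CPM with a prior count of 2). Alternatives were DESeq2 1.42.0 (size factors, and its test), limma 3.58.1 voom, no filter and a stricter filter, each library left out, the 6 title-matched libraries with and without a replicate block, and exchanged groups of the 2 unmatched libraries. Those for 12 pathway genes were added after seeing the data. No 2 libraries of the same group agreed within counting noise. Some items that these rules would name are not reported here.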

Additional observations from a re-analysis of the deposited data

Results flagged for a closer look

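Within a group of 4 libraries, a value was singled out when 1 library lay far from the other 3 by Dixon's test at 95%. Of 120 groups tested 3 were singled out, and chance gives about 1 in 20. The summed bone and cartilage markers were 531.23 CPM in MIA_Acu 3, against 11.78 to 55.92 CPM in the other MIA_Acu libraries and 10.47 to 36.77 CPM in MIA. The immunoproteasome and activator genes summed to 84.87 CPM in MIA 1 and to 76.90 to 77.41 CPM in the other MIA libraries. Pdia3 was at 389.56 CPM in MIA 5 and at 359.76 to 362.79 CPM in the other MIA libraries. None of the 10 antigen presentation genes was singled out in either group.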

How the results depend on the processing

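None of the 10 antigen presentation genes passed the threshold under any of the 16 alternatives, with a lowest adjusted p of 0.0867 (H2-D1). Of 160 fold changes 133 kept their direction and 27 reversed. B2m, H2-Aa, H2-Ab1 and Cd74 were above 0 in all 16; with each library left out, B2m ran from 0.21 to 0.35, H2-Aa from 0.0014 to 0.36, H2-Ab1 from 0.0659 to 0.48 and Cd74 from 0.0909 to 0.44, each of the last 3 lowest without MIA_Acu 2. In the 6 title-matched libraries H2-K1 was at -0.18, Tap1 at -0.23 and Psmb8 at -0.10. With a replicate block they were at -0.17, -0.30 and -0.12, and with exchanged groups at -0.26, -0.39 and -0.22, where H2-T23 was at -0.14. In limma voom Tap1 was at -0.0053 and Ciita at -0.0039. With each library left out, H2-K1 ran from -0.15 to 0.16, H2-D1 from -0.22 to 0.0384, Tap1 from -0.15 to 0.26, Psmb8 from -0.0865 to 0.30, H2-Eb1 from -1e-04 to 0.38, Ciita from -0.10 to 0.26 and the summed class I heavy chains from -0.18 to 0.12; that sum was not run under the stricter filter. Genes above 0 numbered 4 to 9 with each library left out, 6 in the 6 libraries with or without the block, 6 with exchanged groups and 7 in limma voom.

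Genes past the threshold over the whole table, 0 in the main design, numbered 0 to 1340 with each library left out, 6 with no filter, 1963 in the 6 libraries, 1486 there with the replicate block, 207 with exchanged groups and 1753 in DESeq2. The cause was not tested. Whether equal numbers pair the samples cannot be told. The correlations of deviations were 0.07, 0.27 and 0.15 for the numbers 1, 2 and 5, and -0.249 to 0.148 for unequal numbers. Each MIA_Acu library correlated best with the MIA library of its own number. MIA 1, however, correlated better with MIA_Acu 5 (0.148) than with MIA_Acu 1. The block moved H2-DMa to an adjusted p of 0.0264 and H2-DMb1 to 0.0230, both also past the threshold without it. DESeq2 called H2-DMa (adjusted p = 0.0274), Fcgrt (0.00807), Ifngr1 (0.0463), Jak1 (0.0439), Ctsb (0.0207) and Ifit3 (0.0260). With 4 libraries a group, 2 of the 8 matching no title, standard errors of the log2 fold changes of the 10 genes ran from 0.118 (B2m) to 0.285 (Ciita).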
